A study of Homo sapiens with 4 samples.

Results

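The regions described are 3 imprinted chromosome blocks in K562 cells, and their members are all deposited H3K9me2 peaks that overlap them. On hg19 the blocks are chromosome 15 from 22800001 to 28600000 (the Prader-Willi and Angelman region, 15q11-q13), chromosome 11 from 1900001 to 3050000 (H19/IGF2 and KCNQ1, 11p15), and chromosome 14 from 101100001 to 101600000 (DLK1-MEG3, 14q32). They were chosen by position alone and held 2240 of the 1000000 peaks in 4 lists, namely 1759 on 15q11-q13, 380 on 11p15 and 101 on 14q32. By library the members numbered 494 and 578 for the control replicates and 597 and 571 for the knockout replicates.

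The peaks came from CUT&RUN, in which an antibody against dimethylated lysine 9 of histone H3 (H3K9me2) directs a nuclease to the marked chromatin. K562 is an established human myeloid leukemia line. In both control libraries the CRISPR guide was directed at HPRT, and in both knockout libraries it was directed at CUX1, a homeodomain transcription factor, so all 4 had been through CRISPR targeting. Whether the edited cells were pools or single clones, and whether replicates were separate cultures, is not stated in the labels, so p-values reflect only how these libraries varied, possibly for technical reasons. The deposited peak names say "cux1kd" where the sample titles say knock-out, and the lists hold no measure of CUX1 itself.

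In an imprinted domain, genes are expressed from only the maternal or only the paternal copy, and a differentially methylated control element sets which. On 15q11-q13 the genes MKRN3, MAGEL2, NDN and SNRPN are paternally expressed, and UBE3A, an E3 ubiquitin ligase gene, is maternally expressed in neurons. On 11p15 the noncoding RNA H19 is maternal and the growth factor gene IGF2 paternal, and next to them the paternal noncoding RNA KCNQ1OT1 accompanies silencing of CDKN1C, a cell cycle inhibitor gene. On 14q32 DLK1, which encodes a Notch-family ligand, is paternal and the noncoding RNA MEG3 is maternal, together with a long array of small RNA genes. H3K9me2, laid down chiefly by the G9a/GLP methyltransferases, marks silent chromatin and has been tied to imprinted silencing, mainly in mouse placenta. The peak lists do not separate parental copies, and which copies of each block these K562 cells carry was not measured.

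A noncoding or bicistronic transcript that marks the control region of each domain is shown by its start, with the annotated start that holds the most CG dinucleotides where there were several, because imprinting control acts through methylation of CG sites. Each run has 300 bases, 5′ to 3′ on the gene's strand as tabulated by RefSeq on GRCh38.p14, of which 250 precede the start, and capitals mark CG, searched as those 2 letters (CG reads the same on both strands).
SNRPN: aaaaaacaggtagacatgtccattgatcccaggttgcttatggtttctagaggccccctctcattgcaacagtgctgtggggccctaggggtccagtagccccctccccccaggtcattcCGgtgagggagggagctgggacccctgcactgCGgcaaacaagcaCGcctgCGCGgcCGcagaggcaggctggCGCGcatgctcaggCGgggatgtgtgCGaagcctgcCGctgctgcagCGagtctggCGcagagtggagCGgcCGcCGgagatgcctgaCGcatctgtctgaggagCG
H19: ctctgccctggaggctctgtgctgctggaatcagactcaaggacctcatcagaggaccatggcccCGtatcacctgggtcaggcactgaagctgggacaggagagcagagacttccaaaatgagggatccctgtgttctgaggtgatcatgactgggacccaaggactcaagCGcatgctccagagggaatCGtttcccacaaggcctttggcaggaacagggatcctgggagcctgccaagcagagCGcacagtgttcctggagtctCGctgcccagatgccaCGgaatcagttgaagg
MEG3: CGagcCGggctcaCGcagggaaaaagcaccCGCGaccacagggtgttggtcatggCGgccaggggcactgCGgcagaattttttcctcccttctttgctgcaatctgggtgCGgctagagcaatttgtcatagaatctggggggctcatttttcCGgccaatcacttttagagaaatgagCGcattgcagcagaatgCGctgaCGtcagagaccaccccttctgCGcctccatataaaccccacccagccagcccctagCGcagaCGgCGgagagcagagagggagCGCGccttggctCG
These held 18 CG (SNRPN), 6 CG (H19) and 19 CG (MEG3), and 44.5%, 66.3% and 42.9% of the 35116 tabulated promoters of that length held at least as many. The table's build differs from that of the peaks, so no peak was placed on a gene or promoter, and gene names stand here only for the blocks.

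Every list ended at 250000 peaks, at a lowest −log10 p between 1.25 and 1.49, and the sources used here give no read depth. Peaks on chromosomes 1 to 22 and X covered 693 and 679 Mb in controls against 423 and 585 Mb in knockouts. The smallest width in a list ran from 263 bp (knockout replicate 1) to 369 bp (control replicate 2) and the smallest gap from 1056 to 1477 bp. Coverage, width and gap are therefore read below beside limits common to all lists, and knockout replicate 1 stands apart from the other 3 libraries on each of them.

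On 15q11-q13, peaks covered 18.1% of the block in control replicate 1 and 20.4% in control replicate 2, against 12.0% and 15.8% in the corresponding knockout libraries. Both knockout libraries lay below both controls, with group means of 19.3% ± 1.60 and 13.9% ± 2.66 (SD, n = 2 each), a difference of -5.39 points or -28.0% of the control mean (two-sided exact permutation p = 0.333, which is the floor for 2 libraries per group). The block held more listed peaks in knockouts (475 and 450) than in control replicate 1 (385), with control replicate 2 (449) just under them, so the lower coverage went with narrower listed peaks and not with fewer. Median peak width was 2355 and 2153 bp in controls against 1176 and 1630 bp in knockouts, a difference of -37.8% with groups apart (exact permutation p = 0.333). Peaks of at least 5 kb made up 10.9% and 11.4% of the members in controls against 1.68% and 5.11% in knockouts. The median gap between neighbouring peaks was 5850 and 5230 bp in controls against 6332 and 6480 bp in knockouts, a difference of 15.6% (exact permutation p = 0.333). The whole lists went the same way, with a median width of 2335 and 2275 bp in controls against 1324 and 1900 bp in knockouts. Peaks of at least 5 kb made up 12.6% and 11.9% of whole control lists against 2.66% and 7.96% of knockout lists. Median gaps in whole lists were 4210 and 4526 bp in controls against 5848 and 5037 bp in knockouts. The directions in width and gap were thus not particular to the block. On 15q11-q13 the coverage difference was -3.50 points without knockout replicate 1. Without control replicate 2 the gap difference there was 556 bp against 866 bp with all libraries.

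On 11p15, peaks covered 22.8% and 23.3% of the block in controls, 11.1% in knockout replicate 1 and 19.2% in knockout replicate 2. The controls differed by less than a percentage point and both knockouts lay below them, with means of 23% ± 0.400 and 15.1% ± 5.70 (SD, n = 2 each) and a difference of -34.3% (exact permutation p = 0.333). Most of that difference was in knockout replicate 1: without it the difference was -3.87 points, against -7.90 with all libraries. Listed peaks numbered 89 and 107 in controls against 88 and 96 in knockouts, which overlap. Median width was 2333 and 2070 bp in controls against 1108 and 1926 bp in knockouts (-31.1%, exact permutation p = 0.333), and the difference was -276 bp without knockout replicate 1 against -684 bp with all libraries. In units of each list's smallest width the groups overlapped (-17.9%, exact permutation p = 0.667), whereas on 15q11-q13 they stayed apart (-24.8%, p = 0.333). The median gap was 5056 and 5434 bp in controls against 7275 and 6695 bp in knockouts, a difference of 33.2% (exact permutation p = 0.333). With gaps up to 2 kb filled that difference was 9.86%, with groups overlapping (exact permutation p = 0.667). Narrower peaks and wider gaps in knockouts were also seen in the whole lists, as given above for 15q11-q13.

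On 14q32 the block was sparsely covered in every library, with 9.35% and 7.28% in controls against 8.38% and 6.67% in knockouts. The groups overlapped, with means of 8.31% ± 1.47 and 7.52% ± 1.21 (SD, n = 2 each) and a difference of -0.789 points (exact permutation p = 0.667). Without control replicate 1 the difference was 0.249 points, and without knockout replicate 2 it was 0.0702 points. This block held 20 and 22 listed peaks in controls against 34 and 25 in knockouts. Median width was 2162 bp in control replicate 1 and 1128 bp in control replicate 2, against 1074 and 1057 bp in knockouts. The difference of -35.2% thus rested on control replicate 1, and without it was -62.5 bp against -579.8 bp with all libraries. The median gap was 16190 and 8964 bp in controls against 7680 and 9722 bp in knockouts, with overlapping groups (exact permutation p = 0.667); without control replicate 1 the difference was -263 bp against -3876 bp.

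**Figure D1:**
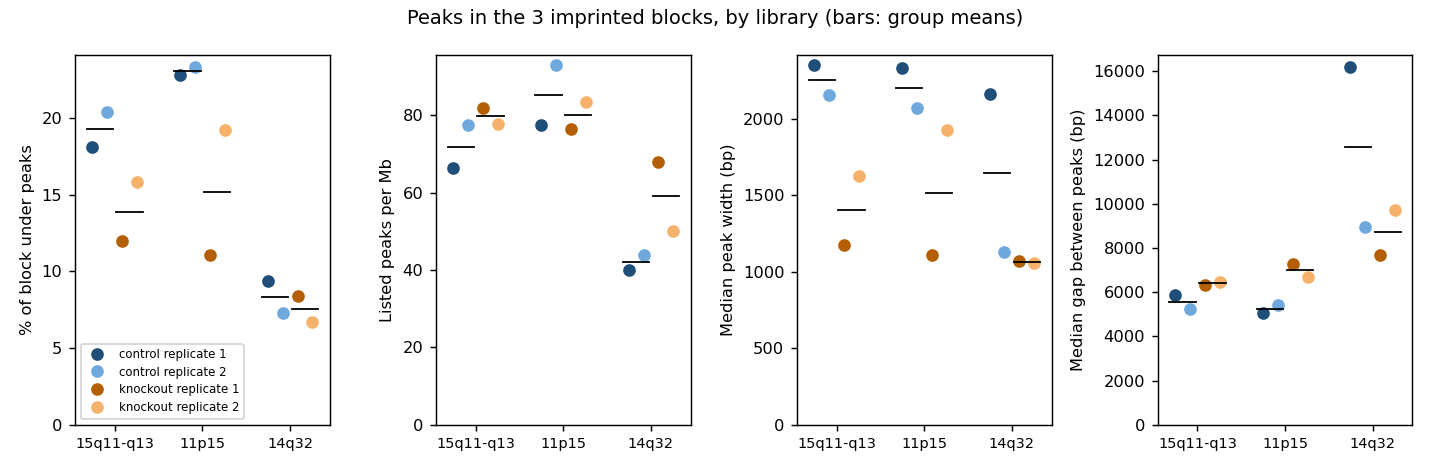
Each point is 1 library; from left to right the vertical axes give the percent of the block under peaks, listed peaks per Mb, median peak width in bp and median gap between peaks in bp, for the 3 blocks, and bars are group means. On 15q11-q13 and 11p15 both knockouts lie below both controls in coverage and width, while on 14q32 coverage overlaps between 6.67% and 9.35%.

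These directions depended on where the lists were read. With 1 limit of 1.49 on −log10 p for all lists, coverage of 15q11-q13 was 6.14% and 7.07% in controls against 12.0% and 8.78% in knockouts, now 57.3% higher in the knockout mean with groups apart (exact permutation p = 0.333). That limit is the lowest value listed for knockout replicate 1, so it left that list whole and cut only the others. The rise was not particular to the block. Over all 50-kb windows the median difference with this limit was 3.44 points, against 3.72 on 15q11-q13. Both knockouts lay above both controls in 31.1% of all windows and in 36.1% of those on 15q11-q13. On 11p15 with that limit the values were 6.48% and 13.2% against 11.1% and 11%, and on 14q32 they were 3.03% and 4.32% against 8.38% and 5.39%. With all lists brought to the covered length of the shortest, 11p15 was the only block of the 3 with less coverage in knockouts, 15% and 15.6% in controls against 11.1% and 13.4% (-19.8%, groups apart, exact permutation p = 0.333). In that setting 15q11-q13 had 9.66% and 10.3% in controls against 12.0% and 10.9%, and 14q32 had 4.74% and 4.44% against 8.38% and 5.89%. Narrower knockout peaks were seen on 15q11-q13 and 11p15 under each of the 4 other list settings, with differences from -40.5% to -26.8%. Wider gaps were not: with the limit on −log10 p the median gap on 15q11-q13 was 15552 and 18307 bp in controls against 6332 and 11392 bp in knockouts.

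Flanks of 2 Mb on each side (1.9 Mb to the chromosome end on the left of 11p15) give a reference from the same list. On 15q11-q13 the block was covered more densely than its flanks in 4 of 4 libraries, with a mean log2 ratio of 1.35 ± 0.19 (SD, n = 4; two-sided exact sign-flip permutation p = 0.125, the smallest that 4 libraries allow). Much of the flank was empty: 50 of the 80 flank windows of 50 kb held no peak in any library, against 7 of 116 in the block. With such windows left out the mean log2 ratio was 0.03 ± 0.19, positive in 2 of 4 libraries (exact sign-flip permutation p = 0.875). Whether peaks could be called in those windows was not tested, since no hg19 sequence was used here.

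The 11p15 block was covered about as densely as its flanks, with log2 ratios of 0.04 and 0.15 in controls against -0.32 and -0.03 in knockouts (mean -0.04 ± 0.20, SD, n = 4; exact sign-flip permutation p = 0.875). It lay on a slope: the left flank was covered to 14.5% and 14.3% in controls and the right flank to 29.3% and 27.4%. The 14q32 block was covered more densely than its flanks in 4 of 4 libraries, with log2 ratios of 0.36 and 0.59 in controls against 0.47 and 0.01 in knockouts (mean 0.36 ± 0.25, SD, n = 4; exact sign-flip permutation p = 0.125). With empty windows left out its ratio was positive in 3 of 4 libraries (mean 0.32, exact sign-flip permutation p = 0.250).

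**Figure D2:**
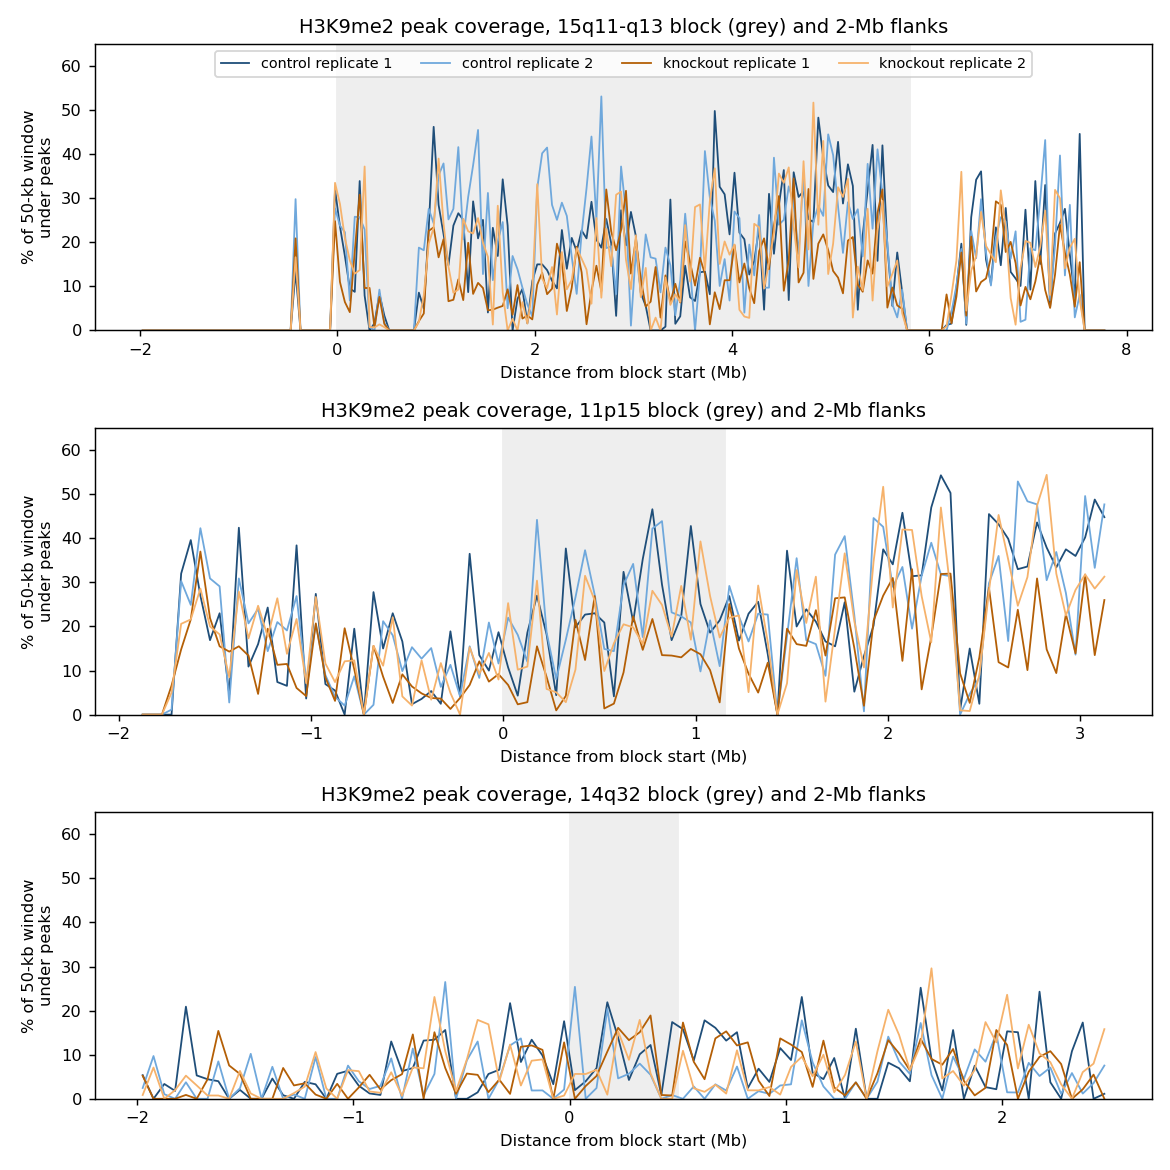
Percent of each 50-kb window under peaks (vertical axis) against distance from the start of the block in Mb (horizontal axis), 1 line per library, with the block in grey and its flanks on either side. The 15q11-q13 flanks are mostly at 0, 11p15 sits on a rise from left to right, and 14q32 stays under 30% throughout.

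Relative to its flanks, each block had a lower mean coverage in knockouts as deposited, of similar size in all 3. The log2 ratio of block over flanks differed by -0.26 on 15q11-q13 and by -0.27 on 11p15, with groups apart (exact permutation p = 0.333 for both), and by -0.24 on 14q32 with overlapping groups (exact permutation p = 0.667). Each of the 4 other list settings also gave a lower knockout mean in all 3 blocks, from -0.37 to -0.09 on 15q11-q13, from -0.52 to -0.22 on 11p15 and from -0.75 to -0.18 on 14q32. The groups overlapped with the limit on −log10 p on 15q11-q13 and with both limits on 11p15 (exact permutation p = 1.00 each), and with the limit on −log10 q and with filled gaps on 14q32 (p = 0.667 each). On 15q11-q13 the difference was -0.26 with empty windows left out, with groups apart. On 15q11-q13 it was -0.13 without control replicate 2 and -0.40 without control replicate 1. On 11p15 it was -0.13 without knockout replicate 1 and -0.42 without knockout replicate 2. On 14q32 it was -0.12 without control replicate 2, -0.47 without knockout replicate 1 and -0.00 without knockout replicate 2, and flanks of 5 Mb gave 0.05. Counted by the serial numbers in the peak names, which run past the end of the lists, the differences were -0.07 on 15q11-q13, -0.12 on 11p15 (groups overlapping) and 0.13 on 14q32. The ratio also moves with the flanks. The median difference over tested windows was -5.05 points on 15q11-q13, -0.905 on its flanks and -5.81 genome-wide. On 11p15 it was -7.35 against -4.44 on the flanks, and on 14q32 2.27 against 0.338. Relative to the rest of the genome the differences were -0.02, -0.20 and 0.32, so a loss shared by the 3 blocks was not established.

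**Figure D3:**
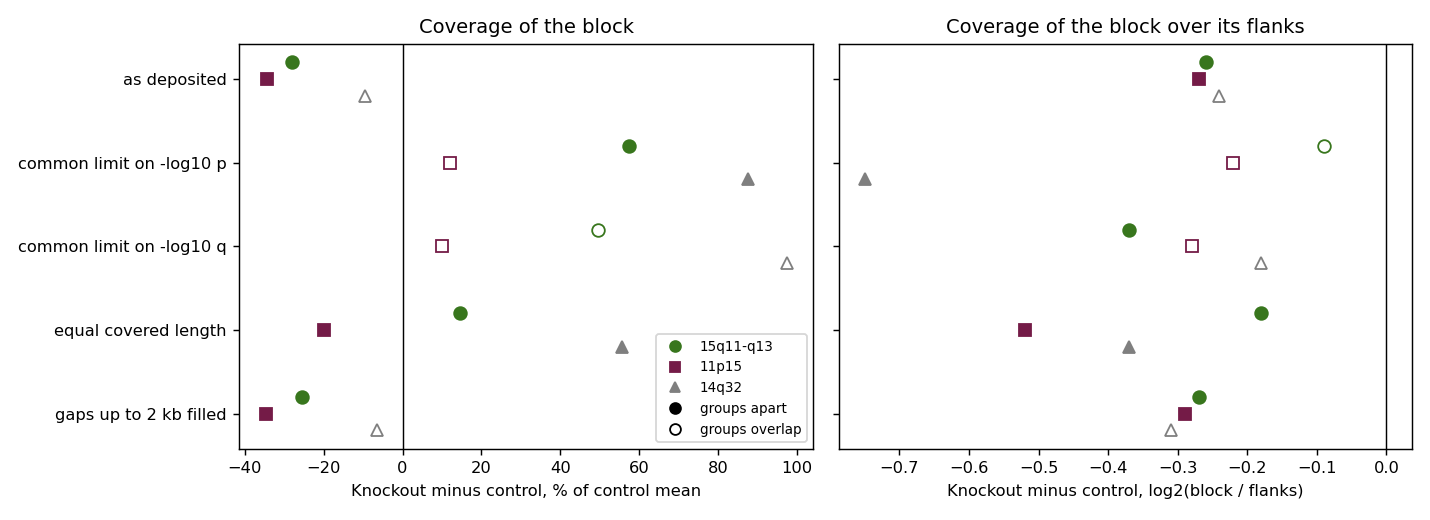
Knockout minus control for each block (colour and shape) under 5 ways of reading the lists (vertical axis); the left panel gives the difference in block coverage as percent of the control mean and the right panel that in log2 of block over flanks, with filled symbols where both libraries of a group lie apart from both of the other. Block coverage changes sign between settings, from -34.7% to 12.0% on 11p15, while all 15 symbols on the right lie below 0.

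Against the rest of the genome, measured over 50-kb windows with a peak in any library, 14q32 stood low. Its log2 ratio was -1.42 and -1.76 in controls against -0.87 and -1.67 in knockouts (mean -1.43, exact sign-flip permutation p = 0.125), whereas against the rest of chromosome 14 it was -0.08 on average (p = 0.125, below 0 in each library), so the block was close to its own sparsely covered chromosome. The ratio to the rest of the genome was -0.29 on average on 15q11-q13 and -0.21 on 11p15, below 0 in 4 of 4 libraries for both (exact sign-flip permutation p = 0.125). The knockout difference in this ratio was -0.02 on 15q11-q13 (exact permutation p = 1.00), -0.20 on 11p15 (p = 0.333) and 0.32 on 14q32 (p = 0.667). Leaving out knockout replicate 1 gave -0.04 on 11p15 and -0.08 on 14q32, leaving out knockout replicate 2 gave -0.36 and 0.72. Compared directly, the change in log2 coverage on 11p15 differed from that on 14q32 by -0.52 and that on 15q11-q13 from that on 14q32 by -0.34, both with overlapping libraries (exact permutation p = 0.667), so no difference in response between blocks was established.

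Coverage was tested in 54440 windows of 50 kb across the genome, and limma called 0 windows (0% of windows tested, Benjamini-Hochberg adjusted p under 0.05), hence 0 of the 140 tested windows of the blocks. At an unadjusted p under 0.05 there were 12 of 108 windows on 15q11-q13, 10 of them lower in knockouts, 1 of 23 on 11p15 and 1 of 9 on 14q32, against 11% of all windows. Both knockouts lay below both controls in 35 windows on 15q11-q13 (32.4%), 9 on 11p15 (39.1%) and 2 on 14q32 (22.2%), against 36.6% of all windows. They lay above both in 8, 0 and 3 windows, against 6.44% of all windows. The median difference was -5.05 points on 15q11-q13, -7.35 on 11p15 and 2.27 on 14q32, beside -5.81 over all windows. In windows of 100 kb, 27 of 27532 were called (0.0981%), and 0 of them lay in the blocks or their flanks.

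**Figure D4:**
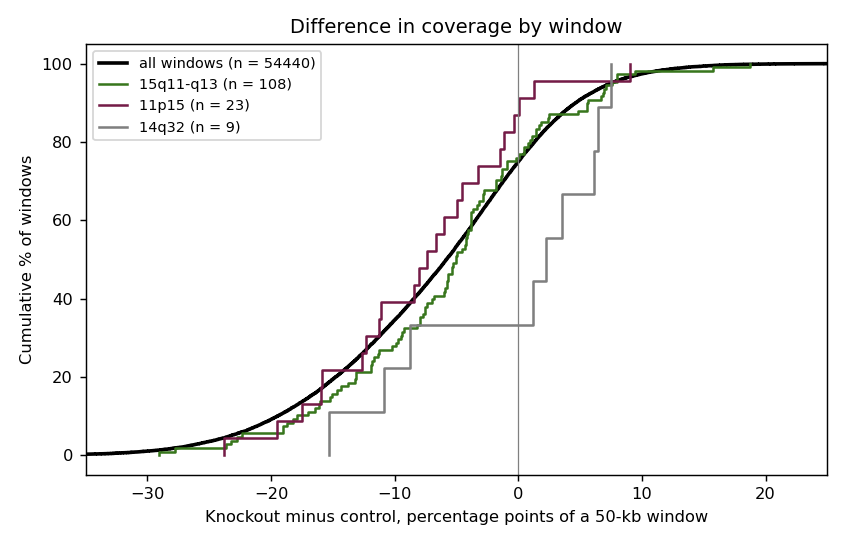
Cumulative percent of 50-kb windows (vertical axis) by the knockout minus control difference in percent covered (horizontal axis, percentage points), for all windows and for the windows of each block. The 15q11-q13 curve runs close to that of all windows (medians -5.05 and -5.81 points), the 11p15 curve has its median at -7.35 points, and 14q32 has 6 of its 9 windows above 0.

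The windows with the smallest unadjusted p on 15q11-q13 lay close together, from 25350001 to 25400000 and from 25450001 to 25500000. In the former, coverage was 29.2% and 44.0% in controls against 8.95% and 6.08% in knockouts, a difference of -29.1 points (SE 10.0, adjusted p 0.353 by limma). In the latter it was 18.8% and 53.1% in controls against 8.91% and 7.44% in knockouts, a difference of -27.8 points (SE 10.3, adjusted p 0.361 by limma). Both knockouts lay below both controls in each, though the controls were far apart in the latter, where the difference was -10.6 points without control replicate 2. With the limits on −log10 p and −log10 q the differences were -19.2 and -9.71 points in the former and -6.39 and -8.19 points in the latter, which had -8.79 points at equal covered length. On 11p15 the window from 2200001 to 2250000 had 37.7% and 17% in controls against 4.26% and 2.83% in knockouts, a difference of -23.8 points (adjusted p 0.361 by limma). It was -3.43 points with the limit on −log10 p, -4.79 with that on −log10 q, -3.43 at equal covered length and -13.5 points without control replicate 1. On 14q32 the window from 101250001 to 101300000 had 21.9% and 20.4% against 10.7% and 0.938%, a difference of -15.3 points (adjusted p 0.455 by limma), and -4.47, -6.70 and -7.53 points in those 3 settings. Next to the far end of that block, from 101550001 to 101600000, a difference of -8.72 points rested on control replicate 1, with 17.4% there and at most 0.842% in the other libraries. None of these windows passed the threshold.

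Within 15q11-q13 coverage was uneven. In steps of 500 kb it was highest from 27300001 to 27800000, with 31.1% and 27.3% in controls against 18.7% and 29.7% in knockouts. It was low from 25800001 to 26300000, with 7.08% and 13.9% in controls against 9.75% and 7.89% in knockouts. From 24300001 to 24800000 the controls had 13.2% and 14.2% and the knockouts 5.19% and 7.48%. The best covered windows of 50 kb started at 28300001 (42.0% and 30.9% in controls, 32% and 29.4% in knockouts) and at 27700001 (39.2% and 26%, 21.8% and 43.0%), both with overlapping groups. The most sparsely covered windows with any peak started at 23150001 and 23250001, with means over libraries of 0.778% and 1.84%. Most of the latter lies in a stretch of 363826 bp, from 23251685 to 23615510, that held no peak in any library, and at the far end of the block 63312 bp from 28536689 onward were likewise bare.

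Within 11p15, the best covered step of 250 kb ran from 2650001 to 2900000, where coverage was 31.6% and 30.5% in controls against 15.3% and 23.4% in knockouts. The window from 2650001 to 2700000 was the best covered of the block, with 46.6% and 42.2% in controls against 21.7% and 28.1% in knockouts (adjusted p 0.479 by limma). With the limit on −log10 p its difference turned from -19.5 to 8.18 points. The window from 2050001 to 2100000 followed, with 27.0% and 44.2% against 15.5% and 30.4%. Only in the last step, from 2900001 to 3050000, was the knockout mean the higher (18.4% against 17.9%), with 8.86% in knockout replicate 1 and 27.9% in knockout replicate 2.

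Within 14q32, the 2 steps of 250 kb differed in direction. From 101100001 to 101350000 coverage was 9.75% and 10.6% in controls against 6.98% and 6.83% in knockouts, with groups apart, and from 101350001 to 101600000 it was 8.96% and 3.99% against 9.79% and 6.5%, with groups overlapping. The difference between the steps was not tested. The window from 101400001 to 101450000, with 10.1% and 7.98% in controls, had 15.1% and 17.9% in knockouts (adjusted p 0.704 by limma). From 101500001 to 101550000 coverage was at most 0.864% in any library, the sparsest window of the block.

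The sparsest window of 11p15 held its strongest peak. From 2150001 to 2200000 peaks covered 4.41% and 8.07% in controls against 0.968% and 5.06% in knockouts. Inside it lay the peak with the highest −log10 p of all 2240 members, from 2172507 to 2173821 in knockout replicate 2, with a fold of 3.66 over the caller's background, −log10 p of 6.11 and −log10 q of 2.81, as the authors' peak list gives them. It was the only member in any library to reach a q of 0.05. Of 250000 peaks a list, 17 and 312 reached it in controls and 9 and 460 in knockouts, so such peaks were rare throughout. The median −log10 q of a block ran only from 0.0102 to 0.0483 over the libraries. The strongest 11p15 peak of control replicate 2, from 2171969 to 2174415 (fold 2.83, −log10 p 3.99), overlapped the strongest of knockout replicate 2 over 1315 bp. Control replicate 1 had a weaker overlapping peak (fold 1.90, −log10 p 1.65, place 21 of 89 by that value), and knockout replicate 1 listed none there.

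A similar overlap was found on 14q32. The strongest peaks of control replicate 2 (101337687 to 101338750, −log10 p 2.40) and of knockout replicate 2 (101337716 to 101338909, −log10 p 2.18) shared 1035 bp, knockout replicate 1 had an overlapping peak in place 10 of 34, and control replicate 1 had none. On 15q11-q13 the strongest peak differed in each library. The highest was in knockout replicate 1 from 23920291 to 23921628 (fold 3.17, −log10 p 4.21), and it was overlapped by broad, weaker peaks in control replicate 2 and knockout replicate 2. The widest members were 14623 bp on 15q11-q13 (control replicate 1, from 27649917 to 27664539), 11591 bp on 11p15 (control replicate 1, from 2218049 to 2229639) and 7493 bp on 14q32 (control replicate 1, from 101294901 to 101302393). Their folds were 1.72, 1.67 and 1.68, below the median fold of their block in that library (1.76, 1.77 and 1.76), so these peaks of control replicate 1 were not the most enriched. In the other libraries the widest peak of a block lay above the median fold in some cases and below it in others.

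Little of the covered sequence was common to all libraries. Of 15q11-q13, 53.9% lay under no peak, 30.0% under peaks of 1 library and 0.449% (26 kb in 38 segments) under peaks of all 4. On 11p15 these shares were 49.5%, 31.0% and 0.953% (11 kb in 12 segments), and on 14q32 73.4%, 22.3% and 0.0720% in 1 segment of 360 bp. The product of the 4 libraries' coverages, given for scale without a test, is 0.0700% on 15q11-q13, 0.113% on 11p15 and 0.00380% on 14q32, so the sequence common to all 4 was scarce but above that product in each block. The product takes every base of a block as equally likely to be covered. Coverage within the blocks was uneven, so no conclusion is drawn from the excess. The widest segments in all 4 libraries were 2204 bp on 15q11-q13, from 27739767 to 27741970, and 1747 bp on 11p15, from 2687587 to 2689333, each inside a window named above as among the best covered.

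Agreement within a group was not regularly closer than between groups. The Jaccard index, bases shared over bases covered in either library, was 0.148 for the controls on 15q11-q13 and 0.118 for the knockouts, while control replicate 2 and knockout replicate 2 had 0.185, the highest of the 6 pairs. On 11p15 the controls were the closest pair, with 0.206, and the knockouts the most distant, with 0.132. On 14q32 the controls had 0.102, the knockouts 0.0784 and the pairs between groups 0.0351 to 0.0738, so there both pairs within a group were the closer. On 15q11-q13 and 11p15 each pair was less alike than on the rest of its chromosome, where the index was 0.162 to 0.223 and 0.161 to 0.226, a description without a test. Both blocks were also less covered than the rest of their chromosome (mean log2 ratios -0.52 and -0.43), and the index depends on how much each list covers. What part of the lower index goes with coverage was not tested. On 14q32 the controls went the other way, with 0.102 against 0.0916 on the rest of the chromosome, while the other 5 pairs were lower in the block.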

How the data were processed

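H3K9me2 was mapped by CUT&RUN in 4 K562 libraries. By the submitters' processing notes, reads were processed with MACS2 2.1.0, deepTools 3.5.1, BWA 0.7.17 and SAMtools 1.16.1 against hg19; caller settings and any background library are not given in the sources used here. Each library has 1 deposited list of 250000 broad peaks, made by the authors. For each peak the deposited lists give a score (10 times −log10 p cut to a whole number, not used), a fold (a ratio over the caller's local background), and −log10 of p and of q. These are the authors' values and were used only to describe, rank or filter peaks. Depth was unknown, so no counting interval is given.

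Sample titles gave the groups and replicate numbers. Percent covered, width and gap were computed with Python 3.11.15. Single values were compared by two-sided exact permutation tests. Percent covered per 50-kb window was fitted by limma 3.58.1 under R 4.3.3 (moderated with a trend, Benjamini-Hochberg threshold 0.05). All windows of chromosomes 1 to 22 and X with a mean of at least 1% entered the fit. The code was also run on simulated windows drawn independently from normal distributions. These differ from the lists, so that run does not bear on how the fit performs here. Neighbouring windows are not independent. Windows were named by a rule: those past the threshold, and per block the 2 with the highest mean, the lowest mean and the smallest unadjusted p; peaks by the highest −log10 p and the largest width. Steps, core segments, bare stretches and overlaps of strongest peaks were described after their values were seen. The members and lists were chosen with earlier results of these data known. The comparison with the rest of the chromosome and genome was added after the data were seen. Alternatives were common limits on −log10 p (1.49) and −log10 q (0.0335), equal covered length, gaps up to 2 kb filled, flanks of 1 and 5 Mb, empty windows left out, serial numbers, quantile normalization, windows of 25 and 100 kb, no filter, a replicate block and each library left out. All 47 gene symbols listed for the blocks matched the RefSeq table (GRCh38.p14), 2 of them by an older symbol, but gene bodies were not tested because the table's build is not that of the files.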

Additional observations from a re-analysis of the deposited data

How the results depend on the processing

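Block coverage in knockouts, lower as deposited, was higher with the common limit on −log10 p by 3.78 points on 15q11-q13, 1.18 on 11p15 and 3.21 on 14q32, with that on −log10 q by 2.52, 0.837 and 2.56 points, and at equal covered length by 1.45 points on 15q11-q13 and 2.55 on 14q32. Over all 50-kb windows the median difference in these settings was 3.44, 3.95 and 0.547 points, in that order. The median gap, larger in knockouts as deposited on 15q11-q13 and 11p15, differed by -8068 and -7912 bp with the limit on −log10 p, by -21576 and -21658 bp with that on −log10 q, and by -2492 and -2001 bp at equal covered length. The median width on 14q32 differed by 188 bp with the limit on −log10 q. The knockout difference in block over flanks on 14q32 was 0.05 with flanks of 5 Mb and 0.13 by serial number. The ratio of 11p15 to its flanks, -0.04, was 0.00 at equal covered length, 0.19 with flanks of 1 Mb and 0.11 by serial number. Relative to the rest of the genome, the knockout difference on 15q11-q13 was 0.26, 0.11 and 0.19 with the limits on −log10 p and −log10 q and at equal covered length. The 11p15 window starting at 2650001 differed by 8.18 and 5.63 points with the 2 limits. The cause was not tested.

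Leaving out 1 library at a time, block coverage differed by -7.27 to -3.50 points on 15q11-q13, -11.9 to -3.87 on 11p15 and -1.83 to 0.249 on 14q32. The ratio of 11p15 to its flanks ranged from -0.10 to 0.06, and the difference relative to the rest of the genome from -0.12 to 0.08 on 15q11-q13 and from -0.08 to 0.72 on 14q32. Over all alternatives, pooled over the 3 blocks, each block's own direction as deposited held in 14 of 24 for block coverage, 26 of 27 for width, 18 of 24 for gap and 34 of 36 for block over flanks, knockout against control. For the gap that direction was a decrease on 14q32 and an increase on 15q11-q13 and 11p15. The alternatives reread the same 4 lists, and -0.00 on 14q32 without knockout replicate 2 was counted as held.

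The count of 50-kb windows called by limma was 0 under each alternative at that size and in windows of 25 kb, and 27 in windows of 100 kb. At an unadjusted p under 0.05 the count was 5981 as deposited and 3720 after quantile normalization, where windows with both knockouts below and above both controls were 17.8% and 18.2%. With the replicate block 0 windows were called, with 6079 at an unadjusted p under 0.05; deviations of same-numbered libraries correlated at 0.0347 over 55247 windows, and with 2 libraries a group the libraries share only a number. Gene bodies were not run. Depth was unknown, so what it limits cannot be stated; 14q32 rested on 20 to 34 peaks a library.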

Other observations

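Read by the serial numbers in the peak names, which appear to number all peaks called and which the sources used here do not explain, 15q11-q13 held 146 and 134 peaks per Mb in controls against 144 and 123 in knockouts. On 14q32 the values were 132 and 80.0 in controls against 108 and 78.0 in knockouts. On both blocks the groups overlapped, and on 14q32 replicates of a group lay farther apart than the group means. On 11p15 they were 140.0 and 150.4 in controls against 135 and 131 in knockouts.

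Across 50-kb windows, libraries ranked the windows of 15q11-q13 less alike than those of the genome. Spearman's rho between pairs of libraries ran from 0.334 to 0.425 over 109 windows on 15q11-q13, against 0.534 to 0.682 over 55247 windows of the genome; windows of a pair share their 2 lists, and no test was made. On 11p15 rho ran from 0.335 to 0.669 over 23 windows and on 14q32 from 0.0669 to 0.681 over 10 windows.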
